A study of Mus musculus with 6 samples.

Results

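The aquaporins described here are Aqp1, Aqp4, Aqp7, Aqp9 and Aqp11, 5 genes picked by their symbols out of the 54232 genes in the deposited count table. Their transcripts were measured in whole tibialis anterior muscle, a fast-twitch muscle of the lower leg, from C57BL6 mice aged 1 month. Mice of genotype Delta 51 (D51) lack exon 51 of Dmd, the dystrophin gene, and gave 3 libraries (D51 4, D51 5 and D51 6). Wild-type (WT) mice of the same strain and age gave the 3 libraries WT 1, WT 2 and WT 3. The labels call the libraries of a genotype biological replicates and name no treatment. The labels give the deletion as the genotype of the animal, with no transgene or Cre driver, and the RNA pools fibres, vessels, blood and other cells of the muscle.

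Aquaporins are membrane channels that let water pass along an osmotic gradient, and the aquaglyceroporins among them also pass glycerol. Aqp4 is the main water channel of fast skeletal muscle fibres and is held at the fibre membrane by the protein complex around dystrophin. Aqp1 is the water channel of capillary endothelium and of red blood cells. Aqp7 is an aquaglyceroporin of adipocytes and capillary endothelium, Aqp9 an aquaglyceroporin of liver and leukocytes, and Aqp11 an intracellular member of the family.

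Totals of reads assigned to genes were 18571038 to 20105817 in D51 and 15681945 to 21020353 in WT. Dmd, counted over the whole gene and not at exon 51 itself, was at 47.7, 46.4 and 51.1 CPM (read counts scaled to library size) in D51 4 to 6, against 235, 249 and 266 CPM in WT 1 to 3. Markers that define skeletal muscle were present in every library, and the 6 genes of that list summed to 46315 to 60003 CPM in D51 and 69461 to 74732 CPM in WT. CPM carry TMM scaling (a trimmed mean of the gene-wise log ratios), with factors of 1.04 to 1.19 in D51 and 0.869 to 0.898 in WT. If only the library sizes are used instead, the median over all log2 fold changes shifts upward by 0.35, so fold changes are to be read against the typical gene, and those of the members are also given with library size alone. On the first principal component, which holds 72.8% of the variance, D51 6 (24.3) lay nearer to the WT libraries (-47.3 to -32.6) than D51 4 (43.5) and D51 5 (46.8).

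Aqp1 and Aqp4 were lower in D51 muscle. With TMM scaling Aqp7 was below every WT library in each D51 library without passing the test, and Aqp11 did not separate the genotypes. Of the 5 genes, 4 passed the filter on low counts and 2 of these were called lower and 0 higher (edgeR quasi-likelihood test, adjusted p under 0.05). Among all 14335 genes tested, 11.9% were called lower and 16.1% higher. The median log2 fold change of the 4 tested aquaporins was -0.66, against -0.01 over all genes tested. Under scaling to library size alone the same counts of 2 lower and 0 higher were obtained for the aquaporins, while 2.33% of all genes were called lower and 37.6% higher. Libraries of the genotypes did not overlap, with TMM scaling, for 3 of the 4 tested aquaporins, as for 45.5% of all genes tested. Aqp7, 1 of these 3, overlapped in the deposited RPKM, which do not carry that scaling.

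**Figure D1:**
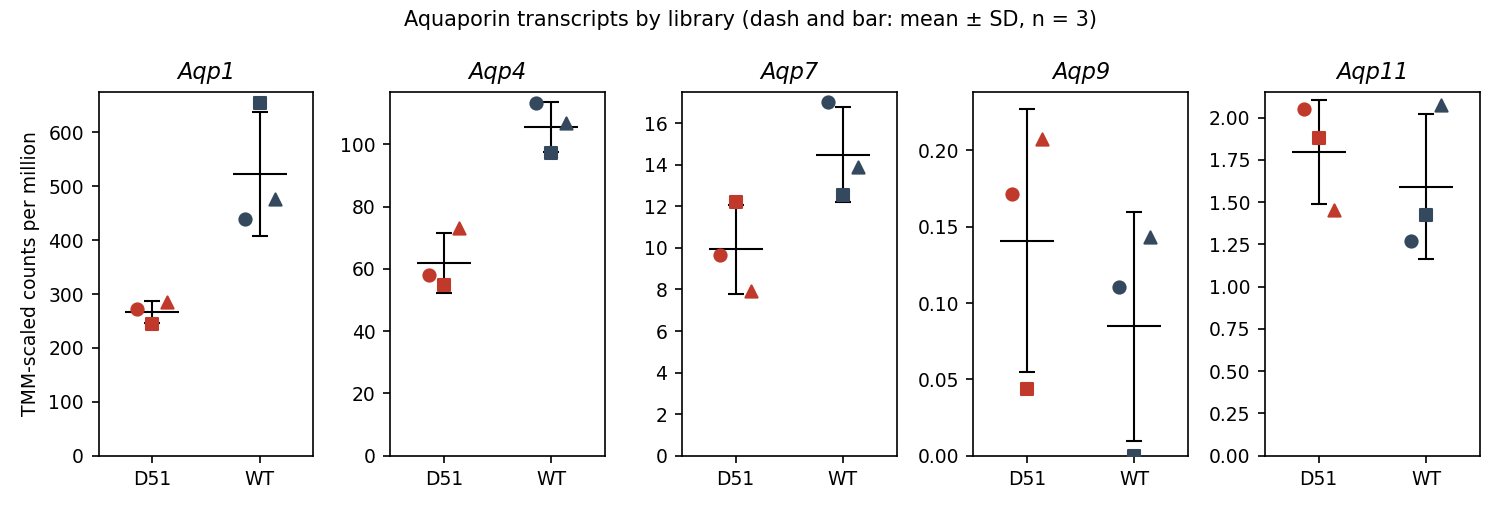
TMM-scaled CPM (vertical axes, each from 0) of the 5 aquaporins in the 3 D51 and 3 WT libraries; circles, squares and triangles are D51 4, 5 and 6 or WT 1, 2 and 3, and dashes with bars are mean ± SD. All D51 points lie below all WT points for Aqp1, Aqp4 and Aqp7, and the genotypes overlap for Aqp9 and Aqp11.

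Aqp1 (ENSMUSG00000004655) lies on the forward strand of chromosome 6 at 55336432 to 55348555 in GRCm38, with 1 annotated transcript and no exon shared with another gene. It was at 272, 245 and 284 CPM in D51 4, 5 and 6, against 438, 655 and 476 CPM in WT 1, 2 and 3. The D51 libraries lie close together and WT 2 stands above the other WT libraries. Means were 267 ± 20.2 CPM in D51 and 523 ± 116 CPM in WT (SD, n = 3 each). The log2 fold change was -0.97 (edgeR adjusted p = 0.00468, SE 0.160, with -1.34 to -0.60 as its 95% interval), which places D51 at 0.511 of the WT level. Without WT 2 it was -0.78 (edgeR adjusted p = 0.0125), and with library size alone -0.62 (edgeR adjusted p = 0.0106).

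Aqp4 (ENSMUSG00000024411) lies on the reverse strand of chromosome 18 at 15389496 to 15410982 and has 11 annotated transcripts, 9 of them protein coding. Counts are summed over the gene, so its transcript forms were not separated. It was at 58.1, 54.8 and 73.0 CPM in D51 4, 5 and 6, against 113, 97.2 and 107 CPM in WT 1, 2 and 3. D51 6 was the highest D51 library and was still below the lowest WT library. Means were 61.9 ± 9.68 CPM in D51 and 106 ± 8.03 CPM in WT (SD, n = 3 each). The log2 fold change was -0.77 (edgeR adjusted p = 0.00434, SE 0.125, with -1.06 to -0.48 as its 95% interval), which places D51 at 0.586 of the WT level. With library size alone it was -0.43 (edgeR adjusted p = 0.0128), and without D51 6 it was -0.91 (edgeR adjusted p = 9.44e-04).

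Aqp7 (ENSMUSG00000028427) lies on the reverse strand of chromosome 4 at 41033074 to 41048139 and has 4 annotated transcripts, 2 of them protein coding. It was at 9.67, 12.2 and 7.94 CPM in D51 4, 5 and 6, against 17.0, 12.5 and 13.9 CPM in WT 1, 2 and 3. The genotypes come close to touching at D51 5 and WT 2. Means were 9.94 ± 2.14 CPM in D51 and 14.5 ± 2.31 CPM in WT (SD, n = 3 each). Its log2 fold change of -0.54 (SE 0.183, with -0.96 to -0.12 as its 95% interval) was not called (edgeR adjusted p = 0.0592). It was called without D51 5 (-0.70, edgeR adjusted p = 0.0374) and by DESeq2 (-0.55, adjusted p = 0.0452), and was -0.18 with library size alone (edgeR adjusted p = 0.536). In the RPKM values deposited by the authors, which are not scaled this way, the genotypes overlapped: 3.98, 5.13 and 2.92 in D51 4 to 6, against 5.41, 3.86 and 4.38 in WT 1 to 3.

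Aqp11 (ENSMUSG00000042797), on the reverse strand of chromosome 7 at 97724006 to 97738289, was at 2.05, 1.88 and 1.45 CPM in D51 4, 5 and 6, against 1.27, 1.42 and 2.08 CPM in WT 1, 2 and 3. The libraries of the genotypes interleave, and the counts behind them are 28 to 48 per library in D51 and 23 to 29 in WT. The log2 fold change was 0.19 (edgeR adjusted p = 0.629, SE 0.271, with -0.43 to 0.82 as its 95% interval), so a change of up to 1.76-fold upward or to 0.742 of the WT level lies within the interval. With library size alone it was 0.55 (edgeR adjusted p = 0.172).

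Aqp9 (ENSMUSG00000032204), on the reverse strand of chromosome 9 at 71110659 to 71168682, was near the limit of detection. It had 4, 1 and 4 counts in D51 4, 5 and 6, against 2, 0 and 2 counts in WT 1, 2 and 3. It did not pass the filter, and the ratio of its summed counts, 9 in D51 and 4 in WT, was 1.73 with a 95% exact interval of 0.482 to 7.68 that covers counting error only. Any ratio within that interval is compatible with these counts, so they give no direction. The only limit computed is the one given below for genes with 0 counts. The other aquaporin genes were lower still: Aqp8 had 3 counts in D51 and 3 in WT, Aqp2 had 2 and 2, Aqp5 had 2 and 0, and Aqp3 had 0 and 1. Aqp6, Aqp12 and Mip had 0 counts in all 6 libraries, which allows up to 0.0458 CPM over the D51 group and 0.0597 CPM over the WT group (3 counts).

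In the authors' deposited table, whose statistic is a likelihood ratio, the comparison gives log2 fold changes of -1.001 for Aqp1 (adjusted p = 1.34e-05) and -0.80 for Aqp4 (adjusted p = 0.00428). For Aqp7 the authors' deposited table gives -0.58 (adjusted p = 0.0352), which is past the threshold that the quasi-likelihood test did not reach. For Aqp11 the authors' deposited table gives 0.18 (adjusted p = 0.600).

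**Figure D2:**
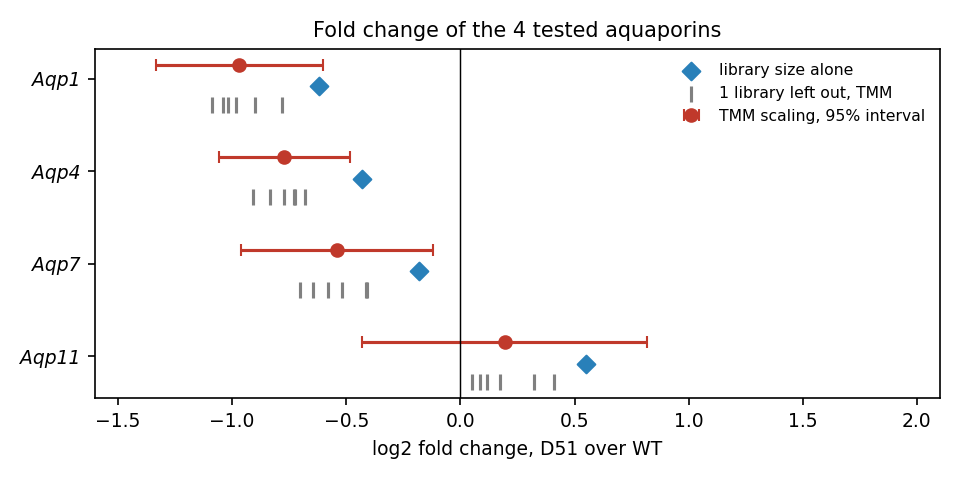
Log2 fold change, D51 over WT (horizontal axis), of the 4 tested aquaporins: circles with 95% intervals are the TMM-scaled edgeR fit, diamonds the fit scaled to library size alone, and grey ticks the fits with 1 library left out. Aqp1, Aqp4 and Aqp7 are negative and Aqp11 positive in every fit drawn, and the interval of Aqp11 spans 0.

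Per exon length, the 5 genes kept 1 order of mean level in D51 and in WT muscle: Aqp1, then Aqp4, Aqp7, Aqp11 and Aqp9. Length-scaled CPM (RPKM, from the deposited counts and exon lengths with TMM scaling) averaged 102 ± 7.69 in D51 and 199 ± 44.0 in WT for Aqp1. Aqp4 averaged 12.2 ± 1.91 RPKM in D51 and 20.8 ± 1.58 RPKM in WT, and Aqp7 averaged 3.51 ± 0.758 RPKM in D51 and 5.13 ± 0.816 RPKM in WT. Aqp11 averaged 0.191 ± 0.0328 RPKM in D51 and 0.169 ± 0.0454 RPKM in WT, and Aqp9 averaged 0.0340 ± 0.0208 RPKM in D51 and 0.0204 ± 0.0181 RPKM in WT (SD, n = 3 each). No neighbours in this order overlapped in any library of a genotype. The exon length used for Aqp4, 5082 bases as deposited, differs from the 6233 bases of the annotation in hand (GENCODE M21), whereas the lengths of the other 4 genes are equal in both. Aqp1 made up 85.9% to 87.2% of the summed RPKM of all aquaporins in D51 libraries and 85.4% to 91.3% in WT libraries, so its share overlapped between genotypes while the sum was 109 to 126 RPKM in D51 and 196 to 273 RPKM in WT.

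**Figure D3:**
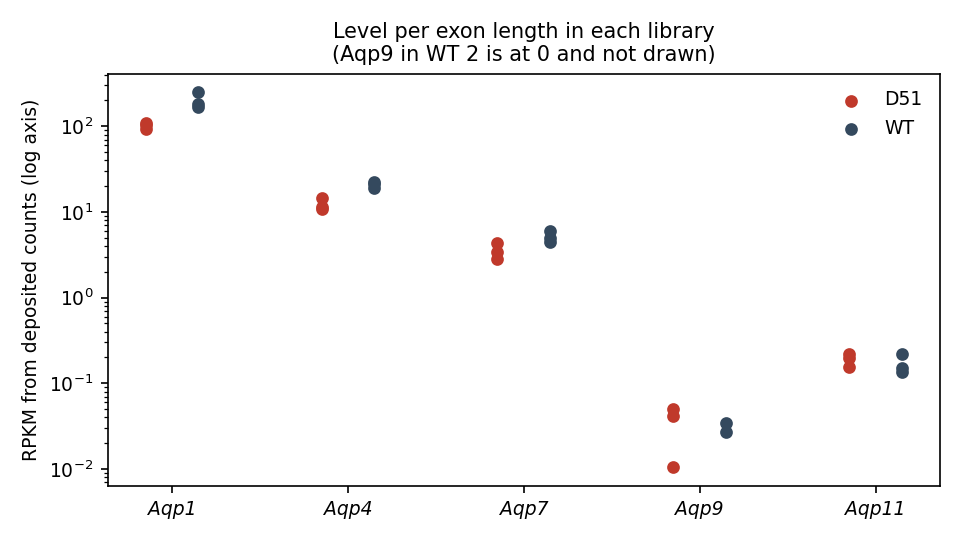
RPKM from the deposited counts (vertical log axis) of the 5 aquaporins, 1 point per library, D51 in red left of WT in dark blue. Levels span from 249 RPKM for Aqp1 in WT 2 down to 0.0106 RPKM for Aqp9 in D51 5, and the value of 0 for Aqp9 in WT 2 is not drawn.

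Ratios of aquaporins within a library depend little on the scaling. The log2 ratio of Aqp1 to Aqp4 was 2.11 ± 0.14 in D51 and 2.28 ± 0.41 in WT (SD, n = 3 each), and the genotypes overlapped. Those of Aqp1 to Aqp7 and of Aqp4 to Aqp7 overlapped too, with D51 minus WT differences of -0.42 and -0.24. The ratios of Aqp1, Aqp4 and Aqp7 to Aqp11 did not overlap and were lower in D51 by 1.09, 0.92 and 0.68 on the log2 scale. These 3 ratios share Aqp11, which was at only 1.27 to 2.08 CPM, so the 0.5 CPM added before taking logs weighs on them. No other pseudocount was tried for ratios between members. Over these 6 pairs the exact two-sided permutation p was 0.1 for each ratio to Aqp11 (0.2 after Benjamini-Hochberg adjustment) and 0.5 to 0.9 for the others, and 0.1 is the smallest that 3 against 3 libraries can give.

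The bases before the transcription starts of the members differ in composition. Shown are the 250 bases upstream of the RefSeq start (GRCm38.p6) for the 3 tested members matched in the promoter table, read on the strand of the gene, so that the starts of the lowered Aqp1, of Aqp7 and of Aqp11 can be set side by side. Capitals mark matches on either strand to the TATA box letters TATAAA, the GC box letters GGGCGG, the CCAAT box letters CCAAT, the E-box letters CANNTG or the GATA motif letters GATAA, and no match here overlaps another. For Aqp7, which has 2 RefSeq starts in the table, the one nearest to the GENCODE start is shown.
Aqp1, chr6:55336049-55336298, forward strand: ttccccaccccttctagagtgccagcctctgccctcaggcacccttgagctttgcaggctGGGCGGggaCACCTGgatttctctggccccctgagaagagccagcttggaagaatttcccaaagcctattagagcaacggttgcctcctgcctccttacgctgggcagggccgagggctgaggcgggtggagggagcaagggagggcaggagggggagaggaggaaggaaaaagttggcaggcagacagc
Aqp7, chr4:41048137-41048386, reverse strand: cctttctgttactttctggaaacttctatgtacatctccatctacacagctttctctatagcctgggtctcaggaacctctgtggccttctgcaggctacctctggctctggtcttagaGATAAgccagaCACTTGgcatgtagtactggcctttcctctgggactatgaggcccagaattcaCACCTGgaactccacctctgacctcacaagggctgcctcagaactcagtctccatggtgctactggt
Aqp11, chr7:97738248-97738497, reverse strand: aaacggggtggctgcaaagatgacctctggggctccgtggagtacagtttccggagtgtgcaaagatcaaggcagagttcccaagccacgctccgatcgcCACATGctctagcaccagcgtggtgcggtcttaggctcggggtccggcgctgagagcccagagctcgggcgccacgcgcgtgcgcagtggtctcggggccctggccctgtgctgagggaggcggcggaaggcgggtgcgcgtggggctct
The windows hold 62.0% G or C for Aqp1, 50.8% for Aqp7 and 67.2% for Aqp11. The Aqp1 window has 1 GGGCGG and 1 CANNTG match, the Aqp7 window 2 CANNTG and 1 GATAA matches, and the Aqp11 window 1 CANNTG match. Among 32851 windows of the same length in the table, 32.7% hold GGGCGG, 66.2% hold CANNTG and 22.6% hold GATAA, so such matches are common. TATAAA, in 12.4% of all windows, and CCAAT, in 33.8%, are in none of these 3 windows. The RefSeq start lies 133 bases from the GENCODE start of Aqp1, 3 bases from that of Aqp7 and 42 bases from that of Aqp11.

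Of 10 genes of the complex that anchors Aqp4, 8 were tested, 1 was higher and 2 were lower, 1 of them Dmd itself, with a median log2 fold change of 0.19. Over all genes tested 16.1% were higher and 11.9% lower, and counts this small over 8 genes do not set the complex apart. Sntb1, which encodes beta-1-syntrophin, rose to 22.3 ± 4.02 CPM in D51, against 9.62 ± 1.01 CPM in WT (1.21, SE 0.159, edgeR adjusted p = 0.0020), and Utrn, which encodes the dystrophin relative utrophin, fell to 75.8 ± 7.02 CPM in D51, against 94.6 ± 2.36 CPM in WT (-0.32, SE 0.0933, edgeR adjusted p = 0.0367). With library size alone Utrn was at 0.03 (edgeR adjusted p = 0.813), so it turned direction, and 4 of the 8 genes were called higher and 1 lower, where 37.6% of all genes were higher and 2.33% lower. In the TMM-scaled fit 1 was lower when any library other than D51 6 was left out.

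With TMM scaling the summed level of fast fibre genes, like that of Aqp4, was below every WT library in each D51 library. The sum was 73269, 70847 and 106880 CPM in D51 4, 5 and 6, against 112290, 113500 and 117720 CPM in WT 1, 2 and 3. The TMM factors were 1.04 for D51 6 and 0.869 to 0.898 for WT. With library size alone the sum of D51 6 lay above that of every WT library. Aqp4 stayed separated in the deposited RPKM, which do not carry that scaling. The nearest libraries there were D51 6 at 14.9 and WT 2 at 16.6. D51 6, the D51 library with the most Aqp4, also had the most fast fibre RNA. Of 10 fast fibre genes tested, 0 were higher and 1 was lower (median log2 fold change -0.37). Among all genes tested 16.1% were higher and 11.9% lower, so the lower count of this fit is near the background. That count varied with the test used. DESeq2, the likelihood-ratio test and the fit without a filter each gave 4 lower, and limma-voom gave 2 lower. Leaving out D51 6 gave 8 lower, and leaving out WT 1 gave 1 higher and 0 lower. Leaving out any other library gave 0 in either direction. With library size alone 1 was higher and 0 lower and the median was -0.03, where 37.6% of all genes were higher and 2.33% lower. The gene then higher was Mylpf, a fast myosin light chain gene, at 0.58 (edgeR adjusted p = 0.00365, against 0.24 and 0.293 with TMM), and Mylk2 was at -0.26 (edgeR adjusted p = 0.140). The gene called was Mylk2, the skeletal myosin light chain kinase gene, at 619 ± 142 CPM in D51 and 934 ± 107 CPM in WT (-0.59, SE 0.173, edgeR adjusted p = 0.0362). The log2 ratio of Aqp4 to the fast fibre list was -5.42 ± 0.10 in D51 and -4.91 ± 0.08 in WT (SD, n = 3 each), without overlap (difference -0.50, exact two-sided permutation p = 0.1, the smallest possible for 3 against 3 libraries, and 0.25 after Benjamini-Hochberg adjustment over 5 ratios). Tnnc2, the fast troponin C gene, is on the list but had only 10, 23 and 21 counts in D51 4 to 6 and 27, 1 and 0 counts in WT 1 to 3. In an alternative chosen after seeing the data, without Tnnc2, the ratio was -6.64 ± 0.09 in D51 and -6.24 ± 0.13 in WT, still without overlap (difference -0.40, exact two-sided permutation p = 0.1). With the summed CPM of the list in place of the mean of its log values the difference was -0.30. Of 10 slow fibre genes, 4 were higher and 2 lower, with sums of 282 to 352 CPM in D51 and 209 to 317 CPM in WT. Their median log2 fold change was 0.57, and 0.16 without D51 5, but the direction differed within the list. Among those higher were Tnni1, a slow troponin gene (3.74, edgeR adjusted p = 6.75e-04), and Atp2a2, a calcium pump gene (1.08, edgeR adjusted p = 0.00105). The 2 lower were the myosin genes Myh7 (-2.08, edgeR adjusted p = 0.0155) and Myh7b (-1.23, edgeR adjusted p = 0.00324). The counts were 4 higher and 1 lower without WT 2, and 6 higher and 3 lower without D51 6. In whole muscle, fewer cells of a type and less RNA per cell cannot be told apart.

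Most endothelial markers fell beside Aqp1. Of 15 endothelial genes tested, 0 were higher and 10 were lower (median log2 fold change -0.53), none was at 0 in any library, and their summed level was 767 to 822 CPM in D51 and 1101 to 1234 CPM in WT. Among all genes tested 16.1% were higher and 11.9% lower. The count of lower endothelial genes was 6 without D51 5 or without WT 2. With library size alone it was 1 and the median was -0.17, where 37.6% of all genes were higher and 2.33% lower. Tek, which encodes an angiopoietin receptor, had a log2 fold change of -0.53 (SE 0.0918, edgeR adjusted p = 0.00569). The log2 ratio of Aqp1 to this list was 2.91, 2.73 and 3.17 in D51 4, 5 and 6, against 3.08, 3.69 and 3.36 in WT 1, 2 and 3. The genotypes overlapped (difference -0.44, exact two-sided permutation p = 0.2, adjusted 0.333). Of 5 erythroid genes, 3 were lower and 0 higher, with sums of 59.9 to 98.6 CPM in D51 and 105 to 175 CPM in WT. That count was 0 without D51 5, D51 6 or WT 1 and with library size alone, and 5 without D51 4 and by DESeq2. Hba-a2, an alpha globin gene, had a log2 fold change of -0.97 (edgeR adjusted p = 0.0257), and the near-identical globin copies Hba-a1 and Hba-a2 may share reads. The part of red cells in the Aqp1 result was not tested.

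For Aqp7 the ratio to endothelial markers differed by less than the spread between libraries, at -1.76 ± 0.19 in D51 and -1.74 ± 0.20 in WT (log2, SD, n = 3 each, difference -0.03, exact two-sided permutation p = 1). The ratio to adipocyte markers was 0.17 ± 0.41 in D51 and 0.58 ± 0.36 in WT, also with overlap (difference -0.41, exact two-sided permutation p = 0.3, adjusted 0.375). Of 10 adipocyte genes, 9 were tested and 0 were called by edgeR (0 at an unadjusted p under 0.05, 0 by DESeq2 and 0 by limma-voom). In edgeR 1 was higher with library size alone, and 1 was lower without a filter. The median of the list had no stable direction. It was -0.12 with TMM, 0.25 with library size alone, and with TMM 0.18 without D51 4, 0.09 without D51 6 and -0.58 without D51 5. Their summed level was 438 to 698 CPM in D51 and 470 to 915 CPM in WT. Most of this sum came from Plin4 (means of 338 CPM in D51 and 451 CPM in WT) and Fabp4 (196 and 197 CPM). Adipoq, the adiponectin gene, was at 1.94 CPM in D51 and 1.67 CPM in WT. The sum is thus mainly a level of few genes, and whether adipocytes are their source was not tested. Glycerol handling genes, which act on glycerol, on glycerol-3-phosphate or on lipids that hold glycerol, had 0 of 9 higher and 3 lower (median log2 fold change -0.41). Among all genes tested 16.1% were higher and 11.9% lower. Pnpla2, the adipose triglyceride lipase gene, was at 168 ± 18.9 CPM in D51 and 284 ± 55.2 CPM in WT (-0.76, SE 0.156, edgeR adjusted p = 0.0102). Gpd2, the mitochondrial glycerol-3-phosphate dehydrogenase gene, was at 168 ± 53.0 CPM in D51 and 281 ± 6.90 CPM in WT (-0.74, SE 0.196), and Pgp, a glycerol-3-phosphate phosphatase gene, was at 17.2 ± 1.37 CPM in D51 and 24.5 ± 4.97 CPM in WT (-0.51, SE 0.154). Gk, the glycerol kinase gene, whose product uses free glycerol, was not called (0.25, SE 0.298, edgeR adjusted p = 0.566). With library size alone none of the 9 was called and the median was -0.06, where 37.6% of all genes were higher and 2.33% lower. In the TMM-scaled fit the count was 1 without D51 5, WT 1 or WT 2 and 2 without D51 4 or WT 3.

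The leukocyte aquaporin Aqp9 had 9 counts in D51 and 4 counts in WT. Of 10 macrophage genes, 9 rose and 0 fell (median log2 fold change 3.24), with sums of 615 to 1414 CPM in D51 and 84.2 to 171 CPM in WT. Among all genes tested 16.1% were higher and 11.9% lower. Neutrophil markers were scarce: 1 of 10 passed the filter (Csf3r, a receptor gene at 4.73 ± 3.01 CPM in D51 and 0.285 ± 0.153 CPM in WT), the whole list summed to 2.96 to 9.06 CPM in D51 and 0.384 to 2.65 CPM in WT, and 3 to 5 of its genes were at 0 in each library.

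**Figure D4:**
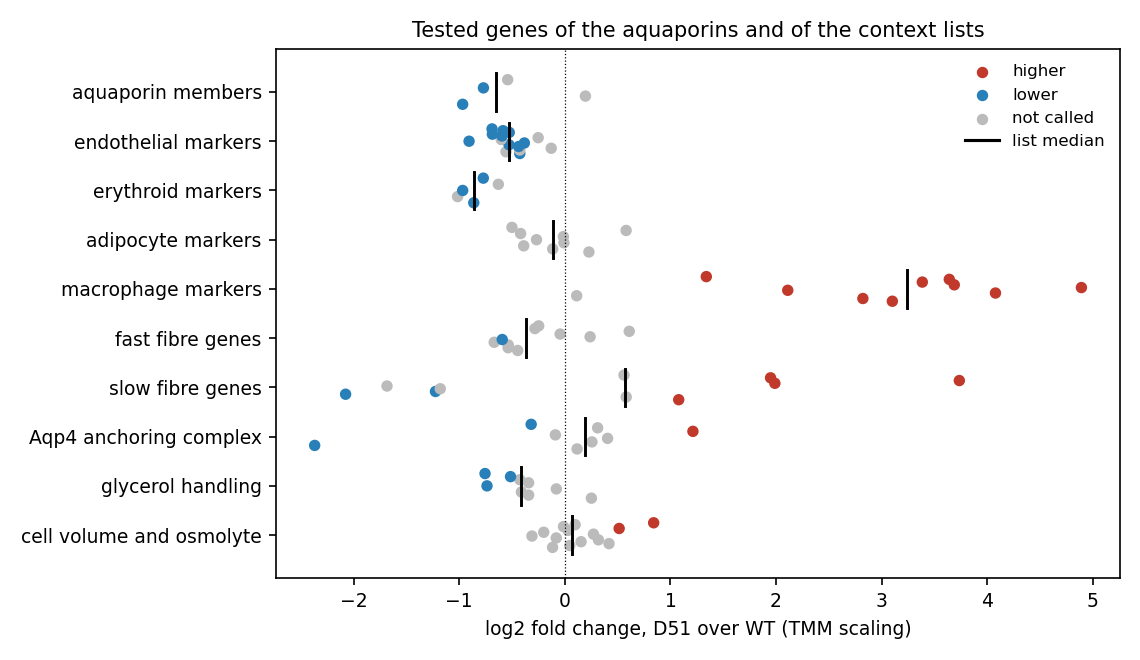
Log2 fold change, D51 over WT with TMM scaling (horizontal axis), of every tested gene of the aquaporins and of 9 gene lists; red, blue and grey points are genes called higher, called lower and not called, and black bars are list medians. The medians are -0.66 for the aquaporins, -0.53 for endothelial and -0.37 for fast fibre genes, and 3.24 for macrophage markers.

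**Figure D5:**
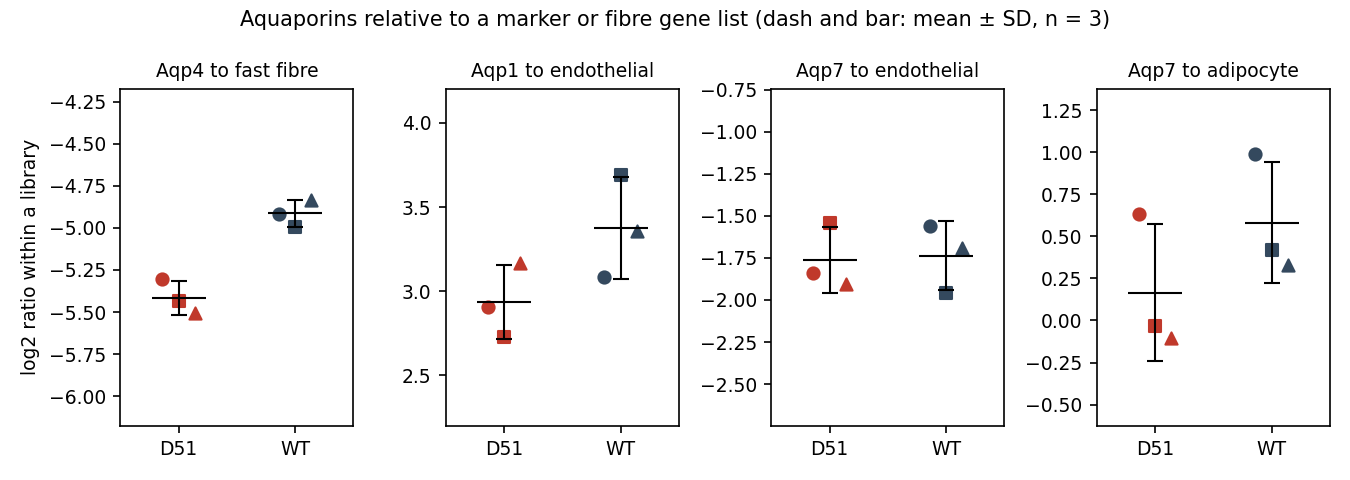
Log2 ratio within each library (vertical axes, all spanning the same range) of Aqp4 to fast fibre genes, Aqp1 and Aqp7 to endothelial markers and Aqp7 to adipocyte markers, in 3 D51 and 3 WT libraries; circles, squares and triangles are D51 4, 5 and 6 or WT 1, 2 and 3, and dashes with bars are mean ± SD. The genotypes separate for the Aqp4 ratio and overlap for the Aqp1 and Aqp7 ratios.

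Genes of at least 5 mean CPM were compared, without predicted (Gm, Rik or clone-type) names and without genes of the mitochondrial genome. Among these 9378 or 9379, the genes whose log2 CPM followed a member most closely over the 6 libraries were ranked by Pearson's r. For Aqp4 they were Pygo1, Fbxl5 and Prdm4 (r of 0.998 to 0.999), and for Aqp1 they were Ndufa9, Atp5b and Uqcrc2 (0.995 to 0.997). For Aqp7 they were Rnf144a, Txnrd2 and Tiam1 (0.973 to 0.984), and for Aqp11 they were Fam234b, Tcea1 and Snrnp27 (0.960 to 0.992). The points share libraries and the genotype difference, and the closest of so many genes are high by selection, so these values only describe the 6 libraries.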

How the data were processed

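For each gene the deposited table holds raw read counts and an exon length, per the file headers, as whole numbers that were not normalized. The authors also deposited RPKM for a subset of genes, and a comparison table with log2 fold changes, average log2 CPM, a likelihood-ratio statistic (a score), p-values, adjusted p-values and −log10 p-values. FastQC 0.11.4, featureCounts 1.6.0, edgeR 3.30.1 and GRCm38 (mm10) are named in the submitters' processing notes. The libraries were stranded, per the labels' protocols, and no source used here names the aligner or strand setting. No member shares exonic bases with another gene in GENCODE M21.

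Counts were tested in edgeR 4.0.16 (R 4.3.3) by its quasi-likelihood F-test after TMM scaling and the default filter by group, and p-values were adjusted by Benjamini-Hochberg over 14335 genes. Tests were two-sided and a call is an adjusted p under 0.05. The SE is the absolute log2 fold change over the root of F, with an interval at 95% from the moderated degrees of freedom. Ratios used log2(CPM + 0.5) of tested genes and exact permutation tests, and 1 of the 5 ratios is not reported here. Alternatives used DESeq2 1.42.0 and limma 3.58.1 besides. Libraries of a genotype differed from each other by 8.81 to 47.6 chi-square per degree of freedom, more than repeated sequencing of 1 library would give. Whether libraries share a sample or an animal was not tested.

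The members and gene lists were chosen with earlier results of these data known. Genes named are the aquaporins, Dmd, up to 3 genes of a list with the smallest adjusted p and 1 in the other direction, and the 3 genes most like each tested member. Hba-a1, Tnnc2, Plin4, Fabp4, Adipoq, Gk, Myh7 and the single tested neutrophil marker were named after their values were seen. Whether samples came from separate litters is not given, so p-values measure the spread between these samples.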

Additional observations from a re-analysis of the deposited data

How the results depend on the processing

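Aqp1 and Aqp4 were called lower under all 19 alternatives run for each, at -1.09 to -0.60 and -0.91 to -0.41, and Aqp11 was called under none of its 19 (0.05 to 0.55). Aqp7 was called lower under 5 of 19: without a filter (-0.53), by the likelihood-ratio test (-0.54), with a replicate block (-0.55), by DESeq2 (-0.55) and without D51 5. Leaving out 1 library gave -1.09 to -0.78 for Aqp1, -0.91 to -0.68 for Aqp4, -0.70 to -0.41 for Aqp7 and 0.05 to 0.41 for Aqp11. Over all genes, 2309 were higher and 1701 lower. These counts were 5394 and 334 with library size alone, 5222 and 309 on the deposited RPKM with a pseudocount of 0.1, 5071 and 308 with a pseudocount of 1, and 1182 and 504 at an adjusted p under 0.01. Leaving out 1 library gave 1346 to 2662 higher and 663 to 2157 lower. The lower count was 986 without D51 4, 759 without D51 5 and 663 without WT 2, and the higher count was 1346 without WT 2. The cause was not tested, apart from the stricter threshold.

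The ratio of Aqp4 to fast fibre genes differed by -0.60 with a pseudocount of 0.1, by -0.30 with summed CPM and by -0.40 without Tnnc2, an alternative chosen after seeing the data. Leaving out 1 library gave -0.56 to -0.46, and -0.59 to -0.29 for Aqp1 and -0.14 to 0.06 for Aqp7 to endothelial markers, and -0.65 to -0.21 for Aqp7 to adipocyte markers. The ratio of Aqp9 to neutrophil markers was not computed, since Aqp9 did not pass the filter, and without a filter Aqp9 was at 0.75 (edgeR adjusted p = 0.647). The label's replicate numbers were not shown to pair the samples, and so few same-numbered libraries cannot exclude a pairing. Same-numbered libraries had correlated deviations of 0.40, 0.02 and 0.08, and only D51 4 and WT 1 correlated best with their own number. With the replicate block 2508 genes were higher and 1960 lower. Depth limits Aqp9 and Aqp11, which rest on few counts.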

Other observations

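Genes of cell volume control were set beside the water channels. Of 15 genes listed, 14 passed the filter, and 2 of them were higher and 0 lower in D51 (median 0.07 on the log2 scale, against -0.01 over all genes tested). Over all genes tested 16.1% were higher, so this count is near the background and is no result about the list. Trpv4, a cation channel gene that responds to cell swelling, rose to 2.63 ± 0.250 CPM in D51, against 1.46 ± 0.256 CPM in WT (log2 fold change 0.84, SE 0.222, edgeR adjusted p = 0.0254). Slc5a3, the sodium and myo-inositol cotransporter gene, rose to 19.9 ± 1.43 CPM in D51, against 14.01 ± 2.93 CPM in WT (0.51, SE 0.155, edgeR adjusted p = 0.0409). Neither call was made without D51 4, without D51 5 or without WT 1, and 5 of the 14 were higher with library size alone, where 37.6% of all genes were. Without D51 6, 2 were higher and 1 was lower.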
